A study of Mus musculus with 2 samples.

Results

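Arterial endothelial cells in single-cell RNA sequencing libraries of embryonic mouse brain were chosen by the genes for which a cell had at least 1 UMI, a unique molecular identifier that marks 1 captured transcript. A cell counted as arterial when it held at least 1000 UMIs, 500 detected genes and no more than 20% mitochondrial UMIs. It also needed a UMI for at least 3 of 8 endothelial genes (Pecam1, Cdh5, Kdr, Flt1, Tek, Tie1, Esam, Egfl7), for at least 2 of 5 arterial genes (Gja4, Gja5, Vegfc, Sema3g, Bmx) and for at most 1 of 5 mural genes (Abcc9, Kcnj8, Pdgfrb, Cspg4, Notch3). This gate held 349 cells of the Foxq1flox/flox library and 162 cells of the Foxq1iECKO library, or 511 of 27041 cells kept in all. Cells that met the endothelial and mural conditions with 0 or 1 arterial gene, 2737 and 2037 in the 2 libraries, are called other endothelial cells.

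Arteries carry blood away from the heart, and their endothelium is set apart early by Notch signalling, in which the ligand Dll4 on one cell activates Notch receptors on its neighbour and switches on targets such as Hey1. Arterial endothelial cells also carry their own gap junction proteins, leave the cell cycle earlier than veins and capillaries, and lack the venous factor Nr2f2. In the brain, endothelial cells acquire a blood-brain barrier under Wnt signals. In its capillaries transporters such as Slc2a1 and Mfsd2a appear, while the pores and caveolae that make other vessels leaky are held back. Foxq1 is a forkhead transcription factor found in brain endothelium.

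Both libraries came from mouse brain at stage E12.5, with cells enriched on beads against CD31 (the product of Pecam1). The genotypes are labelled Foxq1flox/flox, in which Foxq1 is flanked by loxP sites, and Foxq1iECKO. The labels and protocols do not spell out iECKO, nor do they state a Cre driver, an induction, the deleted part of Foxq1, or how many embryos or pools each library holds. With 1 library per genotype there is no replicate: no test was made, and every interval below is a 95% interval that covers counting error only. Levels are in CPM, UMIs summed over the cells of a group and scaled to 1000000 UMIs. A gene was measured when the mean of the compared groups reached 20 CPM. It is called higher or lower when the ratio was at least 1.5-fold and its interval excluded 1. These calls rank sizes within these libraries and do not test the conditions.

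The arterial cells held 3198428 UMIs in Foxq1flox/flox and 1356078 in Foxq1iECKO, with medians of 8000 and 5899 UMIs per cell against 4756 and 4611 in the other endothelial cells. Barcodes shared by the libraries numbered 270 as deposited and 189 among kept cells, and none was arterial in both. Scrublet called 17 of the 349 and 6 of the 162 arterial cells doublets. At least 2 arterial genes were found in 4 of 6150 and 4 of 6208 kept cells with no endothelial gene, and in 0 of 1936 (a floor of 3 cells allows a share of up to 0.155%, and the Clopper-Pearson limit is 0.190%) and 1 of 1426 cells marked as neurons.

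Arterial cells made up 11.3% (10.2 to 12.48) of endothelial cells in Foxq1flox/flox and 7.37% (6.31 to 8.54) in Foxq1iECKO. The gate needs UMIs and so favours deep cells. When cells were thinned to 2000 UMIs and the whole gate was applied again, cells with fewer UMIs were left out, 390 and 322 of them endothelial and 27 and 11 arterial at full depth. The arterial cells were then 114 of 2567 and 56 of 1893 endothelial cells, or 4.44% (3.68 to 5.31) and 2.96% (2.24 to 3.82), again lower in Foxq1iECKO. The mural limit weighed unequally on the libraries: it left out 117 of 466 (25.1%) otherwise arterial cells in Foxq1flox/flox and 142 of 304 (46.7%) in Foxq1iECKO. Without that limit, a setting chosen after seeing the data, the shares were 12.51% and 9.60%. Whether the cells left out were mixtures of an endothelial and a mural cell was not tested.

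Sema3g, a secreted semaphorin, was the most common of the 5 gate genes, with a UMI in 89.1% of Foxq1flox/flox arterial cells. Vegfc, a ligand of the receptor Flt4, was found in 63.0%, the gap junction gene Gja4 in 52.1%, its relative Gja5 in 27.8% and the kinase gene Bmx in 16.9%. The commonest pair was Vegfc with Sema3g, in 189 of 349 and 96 of 162 cells. Most members stood at the edge of the gate: 231 of 349 and 103 of 162 had exactly 2 arterial genes, 75 and 32 had 3, 33 and 21 had 4, and 10 and 6 had all 5. Just outside stood 674 and 461 endothelial cells with 1 arterial gene. Summed over the 28 genes of the arterial identity list, none of them in the gate, these cells reached 2595 and 2631 CPM, while cells with 2 arterial genes reached 3719 and 4132 CPM.

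The sum of that list was higher at each step in the number of gate genes. In Foxq1flox/flox its sum was 1873 CPM in cells with 0 gate genes, 5909 CPM in cells with 3 and 8792 CPM in cells with 4 or 5, and in Foxq1iECKO it ran from 1910 to 8908 CPM. The 35 genes of mitosis and its preparation (G2/M) ran the other way, from 5724 to 1284 CPM in Foxq1flox/flox and from 5405 to 2240 CPM in Foxq1iECKO. Venous identity genes ran from 1974 down to 1112 CPM and from 2001 down to 1035 CPM. Cells with 4 or 5 gate genes were few, 43 and 27, and their median depth was 6212 and 4662 UMIs.

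**Figure D1:**
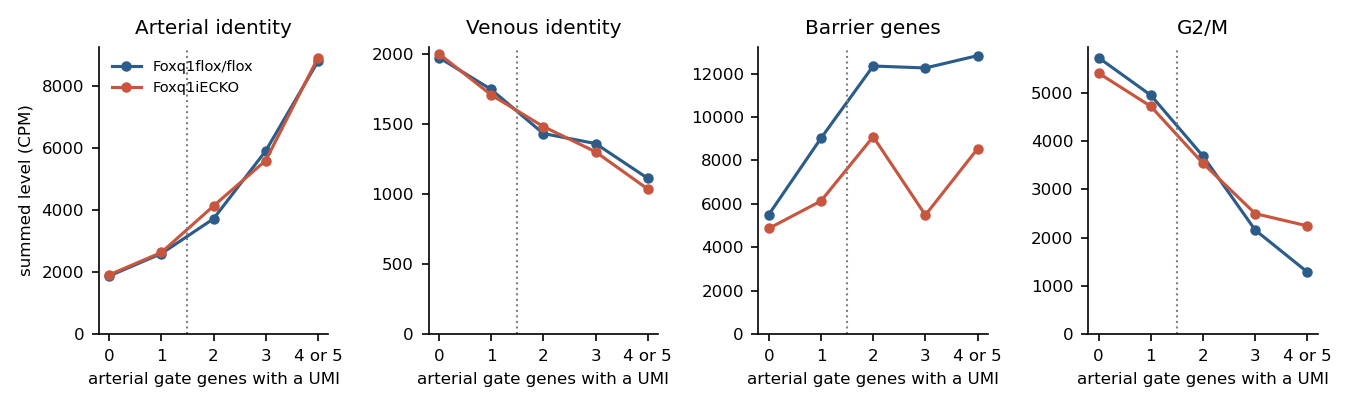
Summed level in CPM (vertical) of 4 gene lists against the number of arterial gate genes with a UMI in the cell (horizontal), for Foxq1flox/flox (blue) and Foxq1iECKO (red); the dotted line is the edge of the gate. Arterial identity runs up from 1873 to 8792 CPM in Foxq1flox/flox and G2/M genes run down from 5724 to 1284 CPM, while the barrier list in Foxq1iECKO shows no steady order.

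The first comparison asked what arterial cells share outside the genes that chose them. In both libraries they carried more transcripts of the Notch ligand Dll4, its target Hey1, the chemokine Cxcl12 with its receptor Cxcr4, and matrix genes, and fewer of cell division genes, the venous factor Nr2f2 and the lymphatic factor Prox1. Since the gate read these same cells, the values describe them and test nothing. Of 6070 genes measured in both libraries, 228 (3.76%) were called higher and 269 (4.43%) lower in both, and none went opposite ways. The balance depends on scaling: by the median of ratios it was 286 higher and 214 lower, and by TMM (trimmed mean of M-values) 278 and 221.

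Of the arterial identity list, 15 of 19 genes measured in both libraries were called higher in both and none lower. The leading gene was Cxcl12, at 404 CPM in arterial and 50.8 CPM in other endothelial cells of Foxq1flox/flox, and at 487 and 85.2 CPM in Foxq1iECKO (log2 ratio 2.99, 2.87 to 3.12, and 2.51, 2.37 to 2.65). After thinning, a Cxcl12 UMI was found in 41.3% and 47.0% of arterial cells, in 8.4% and 10.2% of other endothelial cells and in 3.3% and 4.5% of neuron-marked cells, whose median depth was 3438 and 3666 UMIs. Cxcr4 stood at 138 against 39.0 CPM and at 209 against 37.0 CPM. Receptor and ligand were thus both higher in arterial cells.

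The letters TGGGAA, the core bound by the Notch partner RBPJ, were searched on both strands in the 250 bases before each RefSeq gene start (GRCm38.p6, the same build as mm10). They occurred in 24.1% of 27025 genes, in 2 of the 12 genes with an entry among the 15 arterial identity genes called higher (Cxcl12 and Fbln5), and in 5 of the 15 leading arterial genes with an entry, of 20 listed: Aqp11, Cxcl12, Nebl, Pcsk5 and Tec. The window of Cxcl12 is printed as the leading arterial gene; it was chosen for printing after its match was seen, and the windows of Dll4, Gja5 and Efnb2, also looked at, held none. The forkhead letters TGTTTAC, searched likewise, were in 3.54% of genes and in none of these sets. The Cxcl12 window lies at chr6:117168285-117168534 on the plus strand, upstream of the start, and the capitals mark the only match, which begins 170 bases before the start:
Cxcl12: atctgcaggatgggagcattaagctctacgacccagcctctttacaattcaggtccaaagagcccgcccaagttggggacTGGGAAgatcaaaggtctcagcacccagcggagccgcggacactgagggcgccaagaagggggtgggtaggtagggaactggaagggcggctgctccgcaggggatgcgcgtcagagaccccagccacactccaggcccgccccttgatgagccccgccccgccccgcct
A match of these letters is a description of the sequence and not a measured binding site.

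In the Notch pathway 5 of 16 measured genes were called higher in both libraries: the ligands Dll4 and Jag1, the receptor Notch4, and the targets Hey1 and Nrarp. Hey1 stood at 679 CPM in arterial and 240 CPM in other endothelial cells of Foxq1flox/flox, and at 630 and 210 CPM in Foxq1iECKO. Dll4 stood at 134 against 43.1 CPM and at 115 against 25.2 CPM. Notch1, the main endothelial receptor, was higher by a log2 ratio of 0.52 and 0.55, under the limit. Notch2 was the only one called lower, at 12.8 against 34.2 CPM and 14.7 against 45.7 CPM. Eogt, which adds a sugar to the repeats of Notch receptors, was also among the leading genes, at 437 against 167 CPM and 397 against 135 CPM.

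Beyond Notch, some members of further lists were higher and a few lower, beside 3.76% and 4.43% of all genes. In the BMP and TGF-beta pathway 5 of 22 measured genes were called higher in both libraries and 2, Bmpr1a and Ccn2, lower. In the Wnt list 4 of 18 were higher and 1, Myc, lower. Of the list for tip cells and sprouting vessels 7 of 22 were higher and none lower. Dll4, Cxcr4 and Esm1 were among these 7. Tmem100, a membrane protein that responds to BMP signals, was at 63.2 against 7.10 CPM and 60.5 against 11 CPM. Dkk2, a secreted regulator of Wnt signals, was at 45.3 against 9.14 CPM and 70.8 against 13.9 CPM. Efnb2, the ephrin of arterial endothelium, was at 465 against 185 CPM and 467 against 167 CPM, and its venous receptor Ephb4 was lower by a log2 ratio of -0.26 and -0.35, under the limit. Of the SOXF, ETS and other endothelial factors 4 of 23 were called higher and 2, Nr2f2 and Meis2, lower. Prdm16 (log2 ratio 1.71 and 1.40), Epas1 (1433 against 598 CPM and 1443 against 511 CPM), Sox7 (1.00 and 1.07) and Sox17 (0.64 and 0.68) were the 4, and Mecom of the arterial identity list was also higher (1.22 and 1.38). Klf2 and Klf4, factors induced by flow, differed by log2 ratios of 0.05 to 0.35, under the limit.

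Matrix lists differed in their counts. Of 14 measured basement membrane genes 7 were called higher in both libraries and none lower, with Col4a1 at 2868 against 1746 CPM and 2833 against 1696 CPM. Fibronectin, Fn1, was at 1591 against 827 CPM and 1566 against 745 CPM. In the elastic and arterial wall list 3 of 9 were higher, Fbln2, Fbln5 and Ltbp1, and 1, the fibrillin gene Fbn2, lower. Fbln2, a fibulin of elastic matrix, was at 134 against 31.1 CPM and 131 against 29.7 CPM. Elastin itself, Eln, was at 12.2 and 21.4 CPM in arterial cells, and in this comparison its mean with the other endothelial cells was under the measurement limit.

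**Figure D2:**
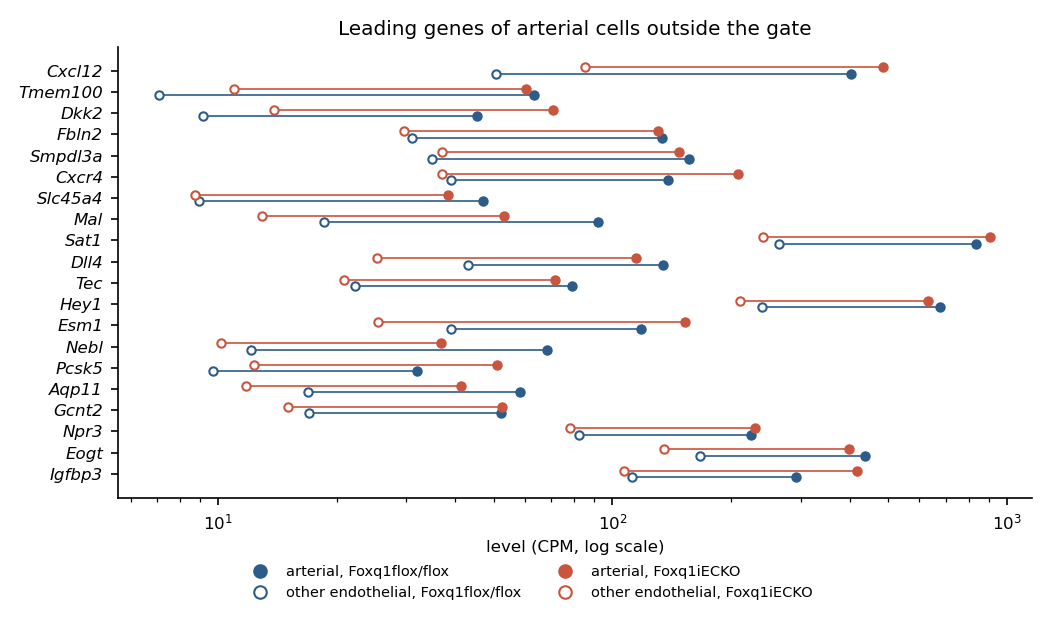
Level in CPM on a log scale (horizontal) of the 20 leading genes outside the gate (vertical), in arterial cells (filled) and other endothelial cells (open) of Foxq1flox/flox (blue) and Foxq1iECKO (red). Each filled point lies to the right of its open point in both libraries, with Cxcl12 at 404 against 50.8 CPM and 487 against 85.2 CPM.

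Cell division genes were lower. Of 28 measured G2/M genes 25 were called lower in both libraries and none higher. Mki67, a marker of dividing cells, stood at 285 against 557 CPM and 277 against 530 CPM. After thinning, 24.2% and 31.1% of arterial cells had a Mki67 UMI against 46.5% and 48.0% of other endothelial cells, and against 16.7% and 24.0% of neuron-marked cells. Cdkn1c, an inhibitor of the cell cycle, was the 1 of 9 measured inhibitors called higher in both, at 652 against 251 CPM and 713 against 277 CPM. Of the DNA replication (S phase) genes 6 of 21 were called lower, Mcm2 among them.

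Venous genes divided. Nr2f2 was at 132 against 247 CPM and 164 against 284 CPM, and Nrp2, Flt4 and Aplnr were also called lower, 4 of 12 measured genes in all. Vwf and Vcam1, which the list holds but which arteries also carry, were called higher. The lowest of the named genes were the platelet chemokines Ppbp and Pf4, the mast cell protease Cpa3, and Reln and Prox1 of lymphatic endothelium. Ppbp stood at 4.06 CPM in arterial and 131 CPM in other endothelial cells of Foxq1flox/flox, and at 1 UMI and 104 CPM in Foxq1iECKO. These ratios depend on which cells make up the other endothelial cells: with those that had a Prox1 UMI left out, Reln in Foxq1iECKO moved from -2.33 to 0.47 and Pcsk6 from -2.15 to 0.09.

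Barrier genes were higher in arterial cells as a whole: 19 of 32 measured genes were called higher in both libraries and 1, the lactate transporter Slc16a1, lower. Slc2a1, the glucose transporter, stood at 749 against 342 CPM and 487 against 266 CPM. Beside this stands the share of cells that had a UMI of Spock2, a proteoglycan, or Slco1c1, a thyroid hormone transporter, both marks of brain endothelium: 69.3% (64.2 to 74.1) and 56.8% (48.8 to 64.5) of arterial against 38.0% and 34.2% of other endothelial cells. Among cells with such a UMI, 1 of 33 measured barrier genes was called higher in arterial cells in both libraries (1.99% of all genes were) and 1 lower (2.96%), while 16 of 20 arterial identity genes and none lower were. Among cells without one, 3 of 23 barrier genes were called higher (3.56% of all genes) and 4 lower (2.45%), and 14 of 19 arterial identity genes higher. Of the G2/M genes 22 of 28 were called lower with the UMI and 8 of 28 without it. In the Notch pathway 3 of 17 were called higher with the UMI (Dll4, Jag2 and Hey1). Without it 6 of 16 were called higher (Notch4, Dll4, Jag1, Hey1, Nrarp and Mfng). Notch2 was the 1 called lower in each. Of the Wnt list only Dkk2 was called higher, 1 of 19 genes with the UMI and 1 of 16 without it, and none lower. Of the BMP and TGF-beta pathway 3 of 22 were called higher with the UMI, Tmem100 among them, and 1 lower. Without it 1 of 21, Ltbp1, was higher and none lower. Of the SOXF, ETS and other endothelial factors 2 of 23 were called higher with the UMI and 3 of 23 without it. In each case 2 were lower. Sox17 was not among the genes called, with the UMI or without it. Matrix genes differed too. Of the elastic and arterial wall list 2 of 8 were called higher with the UMI, and 6 of 11 without it, Eln among them. None was called lower with the UMI and 1, Fbln1, without it. Of the basement membrane genes 2 of 14 were called higher with the UMI and 7 of 14 without it, and none lower. Of the genes of leaky vessels (fenestration and caveolae list) 4 of 11 were called higher with the UMI and 1 lower. Without it 6 of 13 were called higher and 1 lower. Cav1, the caveolar coat protein, was among those higher in each.

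Arterial cells with and without a Spock2 or Slco1c1 UMI were then compared, 242 with 107 cells in Foxq1flox/flox and 92 with 70 in Foxq1iECKO. Those with one had higher levels of barrier genes. Those without had higher levels of caveolar and interferon genes, Gap43 and Nts. Most arterial identity genes were inside the limit. Of 5838 genes measured in both libraries, 309 (5.29%) were called higher and 214 (3.67%) lower in both, while 1 gene (0.0171%) was higher in Foxq1flox/flox and lower in Foxq1iECKO and 15 (0.257%) the reverse. Scaling moved the balance to 409 and 151 by the median of ratios, which shifted all genes by 0.11 and 0.12 on the log2 scale, and to 381 and 166 by TMM.

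Of the barrier list 27 of 32 genes were called higher in both libraries and none lower. The groups were split on UMIs of Spock2 or Slco1c1, both marks of brain endothelium. The values of this list are thus tied to the split and test nothing. The iron importer Tfrc was at 1273 CPM with and 56.5 CPM without in Foxq1flox/flox, and at 944 and 47.3 CPM in Foxq1iECKO. Apcdd1, an inhibitor of Wnt signals, was at 1040 against 28.3 CPM and 784 against 39.1 CPM. Slc7a5, part of an amino acid carrier, was at 746 against 30.4 CPM and 590 against 42.4 CPM. All of these stood far apart in both libraries. Mfsd2a, a lipid transporter, was at 97.9 CPM against 1 UMI in Foxq1flox/flox; in Foxq1iECKO it was at 60.6 CPM against 0 UMIs, at least 12.4-fold higher if 3 UMIs in the group without are taken as the floor.

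Of 11 measured forkhead factors 4 were called higher in both libraries and none lower in both. Foxf2 stood at 443 against 22.8 CPM and 408 against 26.1 CPM, and Foxq1, Foxc1 and Foxc2 were the others called higher; Foxp2 was called lower in Foxq1flox/flox alone and Foxk2 in Foxq1iECKO alone. Of the Wnt pathway 6 of 17 genes were called higher, among them Lef1, a partner of beta-catenin, and the feedback inhibitor Nkd1. The 18 pericyte and smooth muscle markers, 13 of them outside the gate, summed to 410 against 235 CPM and 761 against 213 CPM. At 0 were 6 and 8 of them in Foxq1flox/flox and 6 and 7 in Foxq1iECKO. Of the 3 measured, Rgs5 was at 261 against 12 CPM and 477 against 14.7 CPM, while Abcc9, a gate gene, was called lower in Foxq1flox/flox and higher in Foxq1iECKO. Their part in the differences was not tested.

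Among genes of leaky vessels, 8 of 12 measured members of the fenestration and caveolae list were called lower with the UMI in both libraries, and none higher. Cav1, the caveolar coat protein, stood at 326 against 915 CPM and 401 against 932 CPM. Plvap, the diaphragm protein of fenestrae, was at 67.2 against 112 CPM and 66.0 against 111 CPM. Both were thus measured in cells with the UMI too. Of the interferon response 8 of 12 genes were called lower, with Ifitm3 at 92.6 against 210 CPM and 215 against 341 CPM. Macrophage markers, 12 in all, summed to 162 against 354 CPM in Foxq1flox/flox and 112 against 83.1 CPM in Foxq1iECKO, with 1 and 0 of them at 0 in the first library and 5 and 5 in the second. Mesenchyme markers, 14 in all, summed to 460 against 906 CPM and 1017 against 567 CPM, opposite orders in the libraries, with none at 0 except 1 in Foxq1iECKO cells without the UMI. The part of these cells in the interferon values was not tested. Gap43, a growth cone protein, was at 42.1 against 264 CPM and 51.2 against 306 CPM, and Nts, the precursor of neurotensin, at 13.6 against 202 CPM and 36.4 against 161 CPM.

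In the arterial identity list 4 of 22 genes were called higher and 2 lower, against 5.29% and 3.67% of all genes. Cxcl12 was at 535 against 78.3 CPM and 754 against 163 CPM, and Dll4, Fbln2 and Tspan2 were also higher, while Tm4sf1 and Igfbp3 were lower. Efnb2 was nearly level, at 473 against 445 CPM and 471 against 461 CPM. The gate chose cells on the 5 arterial genes jointly, so a group with more of one needs less of another and their levels here are tied to the gate. Gja4 was at 125 against 29.4 CPM and 95.6 against 42.4 CPM, and Gja5 was at 61.4 against 116 CPM and 86.2 against 134 CPM. Vegfc, Sema3g and Bmx were under the limit in both libraries. Haemoglobin genes were lower with the UMI, Hbb-bt at 55.3 against 160 CPM and 9.43 against 253 CPM, and their part in the other differences was not tested.

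**Figure D3:**
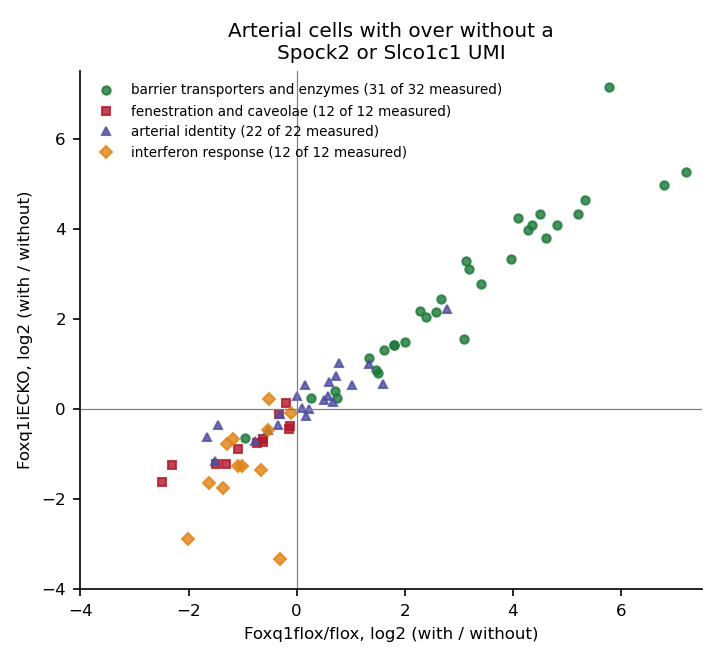
Log2 ratio of arterial cells with over arterial cells without a Spock2 or Slco1c1 UMI in Foxq1flox/flox (horizontal) and Foxq1iECKO (vertical), 1 point per gene measured in both, for 4 lists; Mfsd2a, with 0 UMIs in 1 group, is not drawn. Barrier genes (green) lie to the upper right, fenestration genes (red) and most interferon genes (orange) to the lower left, and arterial identity genes (blue) near the centre.

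Foxq1 itself was compared first between the genotypes. In all arterial cells it stood at 665 CPM (637 to 694) in Foxq1flox/flox and 300.1 CPM (272 to 331) in Foxq1iECKO, a log2 ratio of -1.15 (-1.30 to -0.99). In arterial cells with a Spock2 or Slco1c1 UMI it was at 921 and 523 CPM (-0.82, -0.98 to -0.66), and in those without at 32.6 and 31.0 CPM (-0.07, -0.99 to 0.80). In other endothelial cells with such a UMI it was at 670 and 284 CPM (-1.24, -1.33 to -1.14). These intervals cover counting error only, and the ratio over all arterial cells ran from -1.39 to -0.52 over the settings tried; whether the genotype difference differs between the cell groups could not be tested with 1 library each.

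After thinning, a Foxq1 UMI was found in 161 of 322 and 46 of 151 arterial cells, against 1.7% and 1.3% of neuron-marked cells. The UMIs tag the 3′ end and the deleted part of the gene is not given, so these levels do not measure how many cells had lost the gene. The ratio moved with the gate: it was -0.75 without the mural limit, and -0.78 when cells with and without a barrier UMI were given equal weight.

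**Figure D4:**
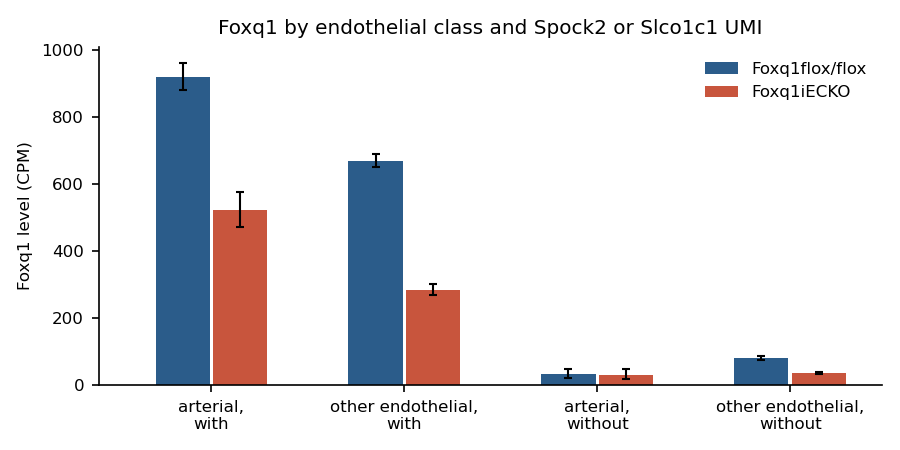
Foxq1 level in CPM (vertical) in arterial and other endothelial cells with and without a Spock2 or Slco1c1 UMI, in Foxq1flox/flox (blue) and Foxq1iECKO (red); bars are summed counts and error bars 95% counting intervals. In arterial cells Foxq1 stands at 921 against 523 CPM with such a UMI and 32.6 against 31.0 CPM without.

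Between the genotypes, arterial cells of Foxq1iECKO held fewer transcripts of barrier genes and more of interferon response genes. The medians of the arterial identity, Notch and G2/M lists were 0.00, -0.02 and -0.04 on the log2 scale. Of 6129 genes measured, 145 (2.37%) were called higher and 165 (2.69%) lower in Foxq1iECKO. In the more deeply counted other endothelial cells 26 of 6367 (0.408%) were higher and 17 (0.267%) lower. Without the mural limit 72 genes were lower in arterial cells, so the number depends on that limit.

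Of 33 measured barrier genes 20 were called lower in Foxq1iECKO arterial cells and none higher, beside 2.69% and 2.37% of all genes. The list median was -0.66 on the log2 scale against -0.01 over all genes. Tfrc stood at 923 CPM in Foxq1flox/flox and 538 CPM in Foxq1iECKO (-0.78, -0.90 to -0.66). Slc39a8, a metal ion importer, was at 568 and 291 CPM (-0.97). Slc38a5, an amino acid transporter of the venous identity list and not of the barrier list, was at 47.8 and 18.4 CPM (-1.38). Apod, Slc22a8, Nkd1, Plekhh1 and Slc3a2 were also among the leading genes called lower, with log2 ratios from -1.37 to -0.83.

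Fewer arterial cells of Foxq1iECKO had a barrier UMI (56.8% against 69.3%). Within arterial cells with such a UMI 10 of 34 barrier genes were called lower (3.71% of all genes were, and 2.82% higher) and the median was -0.41. Within those without, none of 25 was lower (2.79% of all genes), 1 was higher (2.57%) and the median was -0.03. In other endothelial cells 5 of 32 were lower, beside only 0.267% of all genes, and the median was -0.35. Without the mural limit the share of arterial cells with a barrier UMI was 73.4% in Foxq1flox/flox and 74.7% in Foxq1iECKO, the opposite order, and the list median was -0.36. Of the otherwise arterial cells that the limit left out, 85.5% and 95.1% had a barrier UMI.

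Junction and Wnt genes showed smaller numbers, beside 2.69% of all genes called lower and 2.37% higher. Of the junction list 4 of 21 genes were called lower, Cldn5, Lsr, Jam2 and Cdh2, with Cldn5, the main claudin of brain endothelium, at 86.0 and 56.8 CPM (-0.60, -0.98 to -0.23). In the Wnt pathway 5 of 19 genes were lower, among them Lef1 at 137 and 81.1 CPM, and Dkk2 was higher. Of the genes named here as lower, Jam2, Cdh2 and Lef1 were called higher with than without a barrier UMI in both libraries. Cldn5 and Lsr were not. The part of the unequal share of cells with that UMI in these values was not tested. Foxf2 was at 322 and 235 CPM (-0.45), under the limit. Plvap was nearly level at 80.0 and 86.3 CPM, and of 12 fenestration and caveolae genes only Aqp1 was called higher.

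Arterial identity genes had a median of 0.00, but 5 of 22 were called higher, against 2.37% of all genes: Cxcr4, Fbln5, Mgp, Tm4sf1 and Vegfa, and none lower. Of these 5, only Cxcr4 and Fbln5 were also called higher in arterial than in other endothelial cells in both libraries. Vegfa was called lower in arterial than in other endothelial cells of Foxq1flox/flox. Hey1 was at 679 and 630 CPM (-0.11, -0.22 to 0.01), Dll4 at 134 and 115 CPM (-0.22, -0.50 to 0.05) and Efnb2 at 465 and 467 CPM (0.01, -0.13 to 0.14). Of 16 Notch genes 1, the glycosyltransferase gene Lfng, was called lower, against 2.69% of all genes. None of 27 G2/M genes was called in either direction, with a median of -0.04 and Mki67 at 285 and 277 CPM. That median ran from -0.38 without arterial cells that had a Prox1 UMI to 0.46 with at least 3 arterial genes.

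Interferon response genes formed the main group called higher: 11 of 14 measured genes, none lower, with a median of 1.00. Over all genes 2.37% were called higher. Gbp2, a guanylate-binding protein, was at 19.7 CPM in Foxq1flox/flox and 71.5 CPM in Foxq1iECKO (1.86, 1.39 to 2.34), and Ifitm3, a membrane protein that restricts viruses, at 126 and 272 CPM (1.11). In other endothelial cells 6 of 16 interferon genes were called higher, beside only 0.408% of all genes, and the median was 0.48. Gbp2 and Ifitm3 were both higher in arterial cells with a barrier UMI and in those without. With the gate applied after thinning, to 114 and 56 cells, the median was 0.30. Cyp1a1, which metabolizes foreign compounds and responds to the receptor Ahr, stood at 119 and 335 CPM (1.49), and at -0.18 with the gate applied after thinning.

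Some of the leading genes called higher rested on few cells. One cell gave 62.2% of the Cadm2 UMIs and another 36.5% of the Prox1 UMIs in Foxq1iECKO arterial cells. Without the cell with most UMIs in each library, Cadm2 moved from 2.27 to 1.00 (-0.02 to 2.01) and Prox1 from 1.29 to 0.77 (0.31 to 1.22). Rtp4, an interferon-induced gene, moved from 1.93 to 1.86 (1.25 to 2.48). Foxq1 in turn came to -0.81 when arterial cells with a Prox1 UMI were left out. Summed markers of other cells also differed between the arterial cells of Foxq1flox/flox and Foxq1iECKO: the 18 mural markers reached 360 and 513 CPM with 4 and 3 of them at 0, the 14 mesenchyme markers 588 and 813 CPM with none at 0, the 12 erythroid markers 629 and 411 CPM with 1 and 3 at 0, and the 12 macrophage markers 217 and 98.8 CPM with 0 and 5 at 0. Of the 18 mural markers 13 lie outside the gate, which held each cell to at most 1 of 5 mural genes, so that sum partly follows from the gate. A UMI of 1 mural gate gene was found in 134 of 349 and 73 of 162 arterial cells. The part of other cells in these results was not tested.

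**Figure D5:**
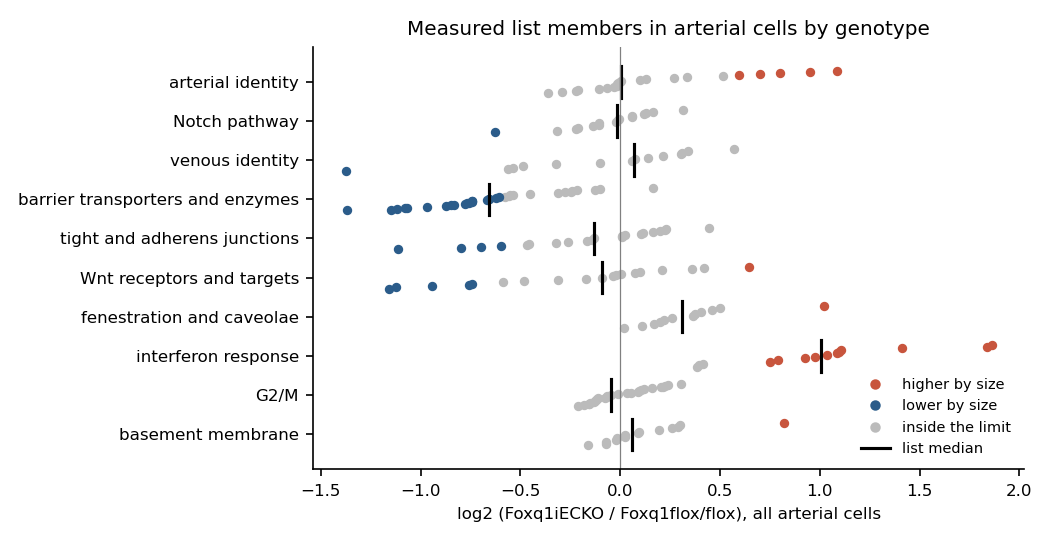
Log2 ratio of Foxq1iECKO over Foxq1flox/flox in all arterial cells (horizontal) for each measured gene of 10 lists (vertical); red and blue points passed the size rule, grey ones did not, and black bars are list medians. The barrier list lies to the left (median -0.66), the interferon list to the right (1.00), and the arterial identity list is centred on 0.00.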

How the data were processed

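Per the labels, mouse brain was dissociated with enzymes, enriched on CD31 beads and captured in microwells that tag the 3′ end of each transcript. The deposited values are UMI counts per gene and barcode for 31253 genes, not normalized; the tools fastp 0.24.0 and STARsolo 2.7.11b and the build mm10 stand in the submitters' processing notes. The annotation, the handling of multi-mapped reads and the barcode filter were not given in the sources used here. The members, the 34 gene lists and the rule for named genes were chosen with earlier results of these data known. Named genes led a comparison by the interval limit nearest 0 (20 higher and 10 lower for arterial against other cells, 12 each way for the barrier UMI, 10 each way for genotype), leaving out gate, mitochondrial, ribosomal, haemoglobin, sex-linked and predicted genes and genes over 5 times higher in another cell class, or belong to a list. Not all genes that this rule names are reported here. The motifs, the genes shown as shares of cells and the lists given most room were chosen after values were seen.

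Counts were summed per library and group and scaled to CPM. Ratio intervals are conditional binomial, levels Poisson and shares Clopper-Pearson, at 95%. The size rule was tested on simulated data; unchanged genes can pass it through counting error at this depth, so the genotype counts in arterial cells include some that may be counting error. After 2 runs missed their limits, the pool of changed genes was narrowed and the accepted share of unchanged genes called was raised. Doublets were called with Scrublet in scanpy 1.11.5 and removed only as an alternative. Scaling factors came from edgeR 4.0.16 and DESeq2 1.42.0 under R 4.3.3, and the rest ran in Python 3.11.15 (pandas 2.3.3, scipy 1.17.1, numpy 2.4.6).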

Additional observations from a re-analysis of the deposited data

Results flagged for a closer look

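Genes were looked for whose calls went opposite ways in 2 groups under the same contrast. Outside ribosomal, predicted and other-cell genes, 11 genes did so by genotype between arterial cells with and without a Spock2 or Slco1c1 UMI, and 5 between the libraries for the contrast of cells with and without that UMI. Over all genes measured, the genotype calls were 2.82% higher and 3.71% lower with the UMI, and 2.57% and 2.79% without it. How many opposite calls such shares would give through counting error was not worked out, so the 11 and 5 are counts only. The values given are those of the genes that belong to a list, a choice made after the genes were seen. Hmmr, a gene of the mitotic spindle, had a log2 ratio of Foxq1iECKO over Foxq1flox/flox of 0.656 in arterial cells with the UMI (76.8 and 48.7 CPM) and -0.938 in those without (50.5 and 96.8 CPM). Ccnb1, the cyclin of mitosis, had ratios of 0.85 (49.8 and 27.6 CPM) and -0.875 (39.1 and 71.7 CPM). The difference between the cell groups was not tested, and with 1 library each it could not be.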

How the results depend on the processing

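No paired analysis was possible because each genotype has 1 library. The 3 settings without the mural limit, without arterial cells that had a Prox1 UMI and without the cell with most UMIs of each gene were chosen after seeing the data; the others were listed with earlier results known. The Foxq1 ratio stayed below 0 in every setting run, from -1.39 to -0.52. Of the main results' values under the alternatives 154 stayed within their limits and 50 moved; of the single genes and further lists 1962 stayed, 445 moved and 8 turned direction. The causes were not tested.

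With at least 3 arterial genes, Foxq1 was -1.39, the barrier median -0.99, arterial shares 3.82% and 2.68%, and the calls 343 higher (arterial against other), 149 and 96 (with against without barrier UMI) and 244 and 290 (genotype). With at least 5 endothelial genes the shares were 14.2% and 9.96%. With 0 mural genes Foxq1 was -0.88, 261 genes were higher by genotype and the barrier UMI share in Foxq1flox/flox was 77.7%. Without the mural limit Foxq1 was -0.75, the barrier median -0.36, the fenestration median turned to -0.026, 72 genes were lower by genotype, arterial shares were 12.51% and 9.60% and the barrier UMI share in Foxq1iECKO was 74.7%. Without arterial cells that had a Prox1 UMI, Foxq1 was -0.81.

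With the gate applied after thinning, Foxq1 was -0.68, the barrier median -0.33, the interferon median 0.30, shares 4.44% and 2.96%, the barrier UMI share in Foxq1flox/flox 64.0%, and the calls 392 higher (arterial against other), 128 and 59 (with against without) and 239 and 251 (genotype). The aryl hydrocarbon receptor median turned to -0.0705, Cyp1a1 to -0.18, Ifi47 to -1.93, Prox1 to -1.36 and Csf2rb in Foxq1flox/flox (with against without) to 0.17. Thinned after the gate, Foxq1 was -0.52, the barrier median -0.44, and the calls 177 lower (arterial against other) and 125 and 80 (with against without). With equal weight of cells with and without a barrier UMI, Foxq1 was -0.78 and the barrier median -0.34; as a mean of per-cell CPM it was -0.67. At 10 CPM 415 genes were lower in arterial cells and 274 by genotype. At 50 CPM the numbers were 108 lower, 43 and 63 by genotype, and 142 lower with the barrier UMI. Without a filter they were 365 and 644 for arterial cells and 349 and 438 by genotype. Against other endothelial cells without a Prox1 UMI, Pcsk6 in Foxq1iECKO was 0.087 and Reln 0.47.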
